A study of Mus musculus with 8 samples.

Results

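The genes described here are 10 targets of Wnt/β-catenin signaling that mark hepatocytes around the central vein of the liver lobule, namely Axin2, Lgr5, Rnf43, Znrf3, Tbx3, Glul, Oat, Slc1a2, Rhbg and Lect2. They were chosen by name, with earlier results of these data known, and all 10 were found among the 24451 genes of the table. RNA of the left liver lobe was sequenced from 4 Brap LKO mice, which carry loxP-flanked Brap alleles (Brap fl/fl) and a Cre transgene driven by the Albumin promoter, and from 4 Brap F/F mice, which carry the same alleles without Cre. All mice were C57BL/6 by their labels, 18 wk old and fasted for 6 h. Albumin-driven Cre acts in hepatocytes and in cells that descend from Albumin-expressing precursors, and the other cells of the lobe, which is sequenced whole, are not targeted. The question was how the livers of the groups differed in RNA. Gene counts summed to between 26280884 reads in the shallowest liver and 33313914 in the deepest, and the values are normalized counts, that is reads on a gene divided by a size factor for its liver.

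Brap itself measured 4042, 4203, 4065 and 3641 normalized counts in Brap LKO and 4410, 4235, 3994 and 4106 in Brap F/F livers (replicates 1 to 4). The groups overlapped, and the log2 difference was -0.07 (adjusted p = 0.631 from limma). Its sign turned under quantile normalization (0.01) and when livers were scaled to equal totals (0.09). Cre removes only part of the gene, and a count over the whole gene includes reads from the remaining exons, so these values did not check the labels. The hepatocyte marker Alb had the largest mean normalized count of its list, 1703127 ± 307004 (SD, n = 4) in Brap LKO and 2441604 ± 472346 (SD, n = 4) in Brap F/F livers, the most abundant transcript of normal liver. Whole-lobe RNA holds no positions, so the pericentral origin of the 10 genes is background and was not measured.

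In the liver lobule, endothelial cells of the central vein release the Wnt ligands Wnt2 and Wnt9b and the Wnt amplifier Rspo3. Wnt ligands bind Frizzled and Lrp5 or Lrp6 receptors on nearby hepatocytes, the complex of Axin, Apc and kinases that destroys β-catenin is inhibited, and β-catenin enters the nucleus and acts with TCF/LEF factors. R-spondins bind Lgr4 or Lgr5 and remove the ubiquitin ligases Rnf43 and Znrf3, which otherwise clear Frizzled from the cell surface. Hepatocytes next to the vein switch on glutamine synthesis and other pericentral functions in this way, whereas urea synthesis and gluconeogenesis are stronger around the portal vein.

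RefSeq promoters (build GRCm38.p6) were matched by symbol for 6 of the 10 genes, with 7 promoters in all, those of Glul, Slc1a2, Oat, Axin2 and Lect2 and both of Rnf43. Lgr5, Znrf3, Tbx3 and Rhbg had no entry. Each was searched on both strands for 4 spellings of the TCF/LEF motif, which are CTTTGAA with the variants CTTTGAT and CTTTGTA and the further form CTTTGTT, none of them part of another. A match was found in 2 of the 7 promoters, and in 5544 of 32851 RefSeq promoters of the same length (16.9%). The promoters of Slc1a2 and Lect2 are shown because they hold the match, and that of Axin2 because this gene is a target of the pathway in many tissues and its promoter holds none. They lie at chr2:102706188-102706487 on the plus strand, chr13:56548489-56548788 on the minus strand and chr11:108920099-108920398 on the plus strand, in this order. Capitals mark the match, which reads CTTTGAT on the strand opposite to the gene in both cases.
Slc1a2: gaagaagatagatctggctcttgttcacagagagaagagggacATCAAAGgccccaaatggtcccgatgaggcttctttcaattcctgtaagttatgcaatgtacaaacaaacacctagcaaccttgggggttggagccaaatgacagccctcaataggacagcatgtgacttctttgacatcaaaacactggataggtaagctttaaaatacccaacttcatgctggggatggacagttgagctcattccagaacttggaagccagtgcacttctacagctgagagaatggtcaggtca
Lect2: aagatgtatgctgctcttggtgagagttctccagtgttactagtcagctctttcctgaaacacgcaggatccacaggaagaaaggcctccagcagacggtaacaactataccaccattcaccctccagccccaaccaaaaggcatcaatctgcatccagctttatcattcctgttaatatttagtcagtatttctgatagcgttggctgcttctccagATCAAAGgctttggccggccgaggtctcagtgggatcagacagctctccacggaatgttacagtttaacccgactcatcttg
Axin2: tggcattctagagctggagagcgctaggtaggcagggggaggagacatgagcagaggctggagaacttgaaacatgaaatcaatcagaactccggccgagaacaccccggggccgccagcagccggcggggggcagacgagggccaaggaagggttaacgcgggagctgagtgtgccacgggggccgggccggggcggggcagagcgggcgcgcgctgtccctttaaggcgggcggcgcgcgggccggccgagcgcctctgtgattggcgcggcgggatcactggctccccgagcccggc
The first base of the match lies at -207 from the start site in Slc1a2 and at -32 in Lect2. The Slc1a2 promoter belongs to a start site inside the GENCODE span of the gene. A match is a description of letters, and binding was not measured.

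Of the 10 genes, only Rhbg passed the threshold between the groups, and it was higher in Brap LKO livers. For the other 9 genes the fitted differences ranged from -0.30 for Lect2 to 0.75 for Lgr5 on the log2 scale. Genes passed at a Benjamini-Hochberg adjusted p under 0.05 over the 15352 tested genes (limma on log2(normalized count + 1)), which understates changes of genes with few reads. At this threshold 102 tested genes (0.664%) were higher and 16 (0.104%) lower in Brap LKO livers, and 1 of the 10 genes was higher and 0 were lower (0 lower also by edgeR and by DESeq2, and 1 lower at an unadjusted p under 0.05). With the unadjusted p from limma under 0.05, 7 of the 10 were higher and 1, Lect2, was lower, beside 9.23% of all tested genes higher and 6.59% lower. In 4 of the 10 every Brap LKO liver lay above every Brap F/F liver, as in 5.48% of all tested genes, and none lay wholly below, as 4.39% did. Fitted values were above 0 for 9 of the 10, and for 48.0% of all tested genes. The median difference was 0.38 for the 10 genes and -0.01 for all tested genes. Because the 10 were chosen with earlier results of these data known, these shares and medians are a description and not independent evidence. All 10 passed the filter, a mean normalized count of at least 5. DESeq2 on the recovered reads called 3 of the 10 higher, Axin2, Rnf43 and Rhbg, and 455 of the 15352 tested genes. With every liver scaled to the same total, 4 were higher, these and Slc1a2, beside 459 of 15359 tested genes, while the median of all genes moved by 0.16 to 0.15, a common shift that every value given here with equal totals carries. The count was 0 with quantile normalization and with the label number series as a covariate.

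**Figure D1:**
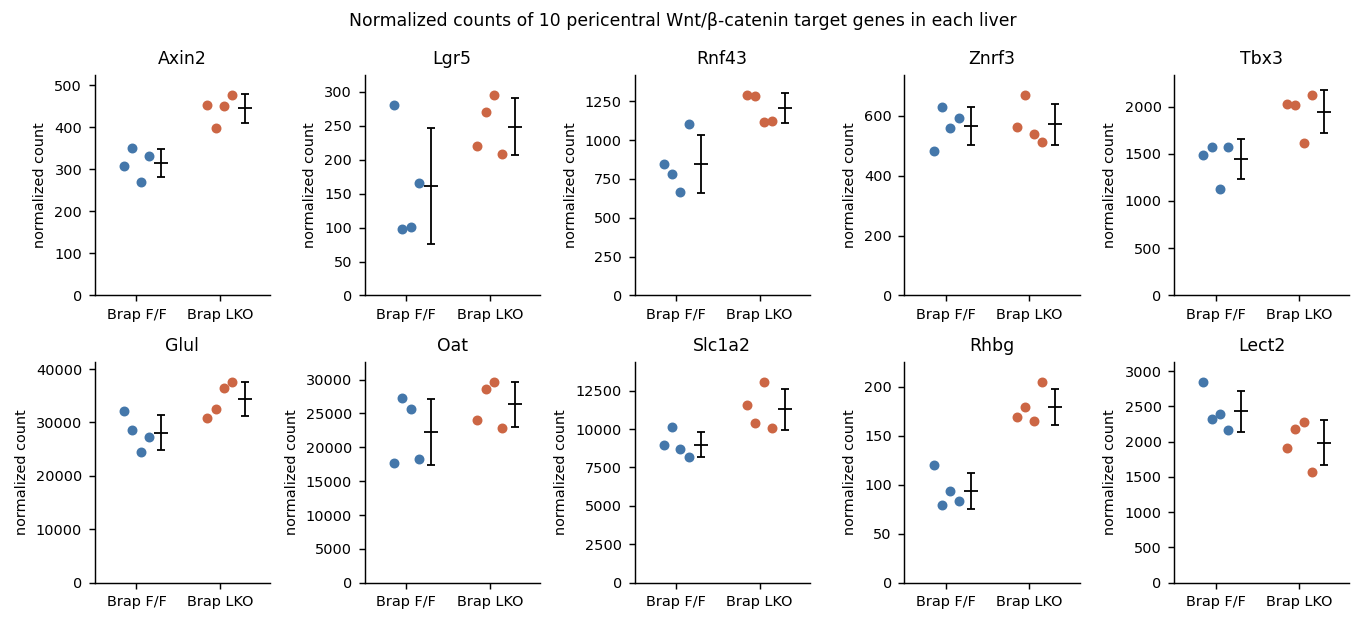
Normalized counts (vertical axes, from 0) of the 10 genes in each of 4 Brap F/F (blue) and 4 Brap LKO (orange) livers, with the mean and SD of each group in black. The groups are apart for Axin2, Rnf43, Tbx3 and Rhbg and overlap for the other genes.

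Axin2 and Rnf43 encode feedback inhibitors of the pathway. Axin2, a scaffold of the β-catenin destruction complex (ENSMUSG00000000142, chr11:108920349-108950783, plus strand, GRCm38), measured 454, 398, 451 and 478 normalized counts in Brap LKO and 307, 350, 271 and 333 in Brap F/F livers (replicates 1 to 4). Every Brap LKO liver lay above every Brap F/F liver. The log2 difference was 0.50 (95% interval 0.27 to 0.73, adjusted p = 0.0628 from limma), and the two-sided exact permutation test gave p = 0.0286, the smallest that 70 arrangements allow. Adjusted p-values were 0.00186 with DESeq2 and 0.0197 with the same total per liver. Of its exon bases, 3.8% are shared with Gm11670 on the other strand.

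Rnf43, the ligase that clears Frizzled receptors (ENSMUSG00000034177, chr11:87662722-87735539, plus strand), measured 1292, 1282, 1118 and 1123 normalized counts in Brap LKO and 843, 780, 663 and 1101 in Brap F/F livers (replicates 1 to 4). The groups did not overlap, but Brap F/F replicate 4 came close to the lowest Brap LKO liver. The log2 difference was 0.53 (95% interval 0.21 to 0.84, adjusted p = 0.123 from limma), and 0.66 without Brap F/F replicate 4 (adjusted p = 0.0249 from limma). DESeq2 gave an adjusted p of 0.0374 and the same total per liver 0.0486.

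Znrf3, the relative of Rnf43 (ENSMUSG00000041961, chr11:5276324-5444847, minus strand), measured 562, 671, 538 and 514 normalized counts in Brap LKO and 482, 631, 561 and 592 in Brap F/F livers (replicates 1 to 4). The groups covered much the same range. The log2 difference was 0.01 (95% interval -0.24 to 0.26, adjusted p = 0.968 from limma), and its sign turned when either Brap LKO replicate 2 (-0.07) or the first Brap F/F replicate (-0.06) was left out.

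Lgr5, a receptor of R-spondins (ENSMUSG00000020140, chr10:115450311-115587780, minus strand), varied most among the 10 genes. Its normalized counts were 221, 271, 296 and 208 in Brap LKO and 280, 97.6, 101 and 166 in Brap F/F replicates 1 to 4. Brap F/F replicate 1 lay above 3 of the 4 Brap LKO livers, and the other Brap F/F livers lay below all of them. The log2 difference of 0.75 (95% interval 0.05 to 1.45) had an adjusted p of 0.291 from limma. When 1 liver was left out it ranged from 0.555 to 1.06, the latter without Brap F/F replicate 1 (adjusted p = 0.0819 from limma). Brap F/F replicate 1 is the only control whose label number falls in the lower series, together with Brap LKO replicates 1 to 3. With this number series as a covariate the difference was 0.36, and each series holds only 1 liver of one of the groups, so comparisons within a series were not made.

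Tbx3, a T-box transcription factor of pericentral hepatocytes (ENSMUSG00000018604, chr5:119670669-119684724, plus strand), measured 2025, 2014, 1609 and 2126 normalized counts in Brap LKO and 1491, 1572, 1130 and 1571 in Brap F/F livers (replicates 1 to 4). Each Brap LKO liver exceeded each Brap F/F liver, with Brap LKO replicate 3 nearest to the controls. The log2 difference was 0.44 (95% interval 0.15 to 0.72, adjusted p = 0.156 from limma). Tbx3 shares 1.74% of its exon bases with Tbx3os1 on the other strand, and the strand used in counting is not given in the sources used here.

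Rhbg encodes an ammonia transporter of the basolateral membrane of pericentral hepatocytes (ENSMUSG00000104445, chr3:88242874-88254709, minus strand). Its normalized counts were 169, 179, 165 and 205 in Brap LKO and 120, 79.3, 93.6 and 83.4 in Brap F/F replicates 1 to 4. All 4 Brap LKO livers lay above all 4 controls, of which replicate 1 was highest, and the mean was 1.91-fold higher in Brap LKO. The fitted log2 difference was 0.94 (95% interval 0.60 to 1.27, adjusted p = 0.0313 from limma). The call was lost with quantile normalization (adjusted p = 0.0508 from limma) and with the label number series as a covariate (0.0755). It was also lost with the replicate number as a block, which pairs livers by number only (0.0705). Leaving out 1 liver ended the call in 6 of 8 cases, each of Brap LKO replicates 1 to 4 and Brap F/F replicates 2 and 3 (adjusted p up to 0.102 from limma). Over the alternatives the adjusted p ranged from 8.02e-06 to 0.102. Rhbg shares 1190 exon bases (61.4%) with Gm38392 on the same strand, whose normalized counts were 0, 0.85, 1.01 and 2.08 in Brap LKO and 3.42, 1.02, 1.05 and 0 in Brap F/F livers, so how shared reads were assigned bears on the level of Rhbg and is not given in the sources used here.

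Glul, glutamine synthetase (ENSMUSG00000026473, chr1:153899944-153909723, plus strand), is confined to the hepatocytes nearest the central vein in normal liver. It measured 30866, 32470, 36437 and 37585 normalized counts in Brap LKO and 32149, 28558, 24429 and 27267 in Brap F/F livers (replicates 1 to 4). Brap F/F replicate 1 lay above Brap LKO replicate 1, and the other controls lay below every Brap LKO liver. Its log2 difference was 0.29 (95% interval 0.03 to 0.55, adjusted p = 0.273 from limma), and 0.45 with equal totals. Glul shares 3.49% of its exon bases with Teddm2 on the other strand and 2.8% with Mir8114 on its own. Bulk RNA cannot tell more cells of a kind from more RNA per cell, for Glul as for the other genes.

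Slc1a2, a glutamate transporter (ENSMUSG00000005089, chr2:102658659-102790784, plus strand), measured 11549, 10412, 13063 and 10088 normalized counts in Brap LKO and 8971, 10141, 8677 and 8180 in Brap F/F livers (replicates 1 to 4). Brap F/F replicate 2 and Brap LKO replicate 4 overlapped narrowly. Fitted on the log2 scale, the difference was 0.32 (95% interval 0.09 to 0.56, adjusted p = 0.188 from limma), and 0.48 with the same total per liver (adjusted p = 0.0339 from limma). It shares 1.44% of its exon bases with Gm13872 on the other strand. Oat, ornithine aminotransferase (ENSMUSG00000030934, chr7:132557478-132576398, minus strand), measured 24099, 28660, 29658 and 22926 normalized counts in Brap LKO and 17739, 27250, 25677 and 18306 in Brap F/F livers (replicates 1 to 4). The controls fell into a lower pair, replicates 1 and 4, and a higher pair within the Brap LKO range, and the difference of 0.26 on the log2 scale had an interval that included 0 (-0.11 to 0.63, adjusted p = 0.463 from limma), with 0.16 without Brap F/F replicate 1 and 0.42 with equal totals.

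Lect2, which encodes a secreted hepatokine (ENSMUSG00000021539, chr13:56542464-56548502, minus strand), was the member with a negative difference. Its normalized counts were 1910, 2180, 2283 and 1565 in Brap LKO and 2846, 2322, 2387 and 2166 in Brap F/F replicates 1 to 4. The lowest control lay below Brap LKO replicates 2 and 3. On the log2 scale the difference was -0.30 (95% interval -0.59 to -0.01, adjusted p = 0.302 from limma). It was -0.19 without Brap LKO replicate 4, -0.14 with equal totals and -0.49 with the label number series as a covariate. The promoters of Lect2 and Slc1a2 hold the same match. The differences of these genes had opposite signs, neither passed the threshold, and a link between match and difference was not tested.

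**Figure D2:**
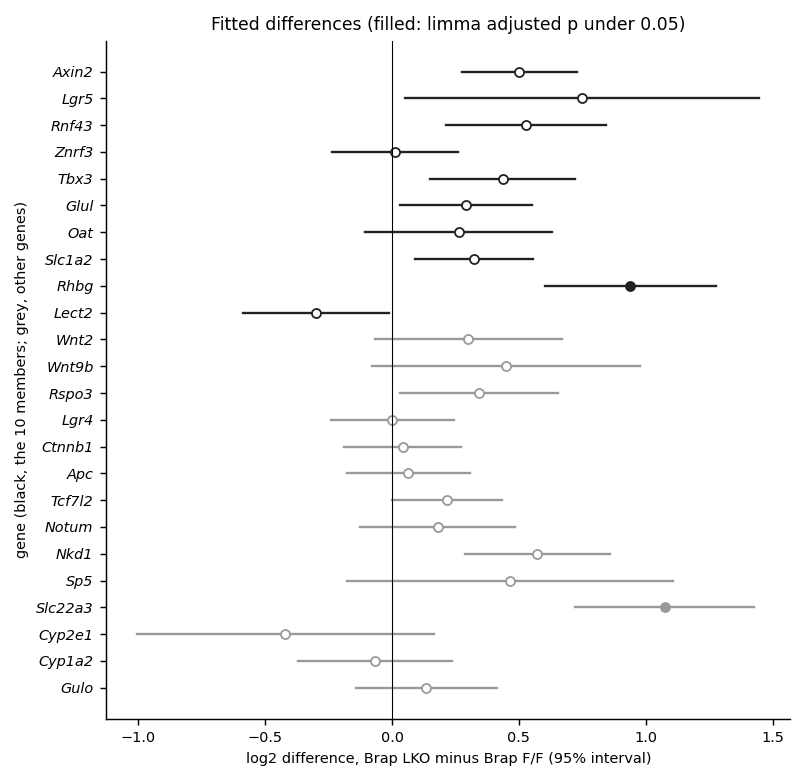
Fitted log2 difference, Brap LKO minus Brap F/F (horizontal axis), with its 95% interval for the 10 members (black) and for 14 other genes of the pathway and of pericentral hepatocytes that were picked by name (grey), 4 livers per group. Filled circles mark an adjusted p under 0.05 from limma, reached among the genes shown by Rhbg (0.94) and Slc22a3 (1.07).

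Per kb of exon, the levels of the 10 genes in Brap F/F livers spanned from a mean of 15.7 ± 8.33 (SD, n = 4) normalized counts per kb for Lgr5 to 9425 ± 2085 (SD, n = 4) for Oat. Glul followed Oat with 8456 ± 964 (SD, n = 4), and the ranges of these genes overlapped. Lect2, Slc1a2, Tbx3 and Rnf43 came next in this order, each with a range apart from its neighbors, and then Znrf3, below Rnf43 in every control. Znrf3 and Axin2 overlapped, as did Axin2 and Rhbg, and Lgr5 lay below Rhbg in every control.

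Among the livers, Brap LKO replicates 2 and 3 had 9 of the 10 genes above the gene's median over the 8 livers, replicate 1 had 7 and replicate 4 had 5. Brap F/F replicates 1 to 4 had 3, 4, 2 and 1. The mean deviation of the 10 genes from their means was 0.13 to 0.23 on the log2 scale in Brap LKO livers and -0.33 to -0.06 in Brap F/F livers. Brap F/F replicate 3 was lowest, with Axin2, Rnf43, Tbx3 and Glul each at their lowest value there. Brap F/F replicate 1 stood nearest to the Brap LKO livers (-0.06), but without Lgr5 it lay at -0.13 and Brap F/F replicate 2 at -0.10.

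**Figure D3:**
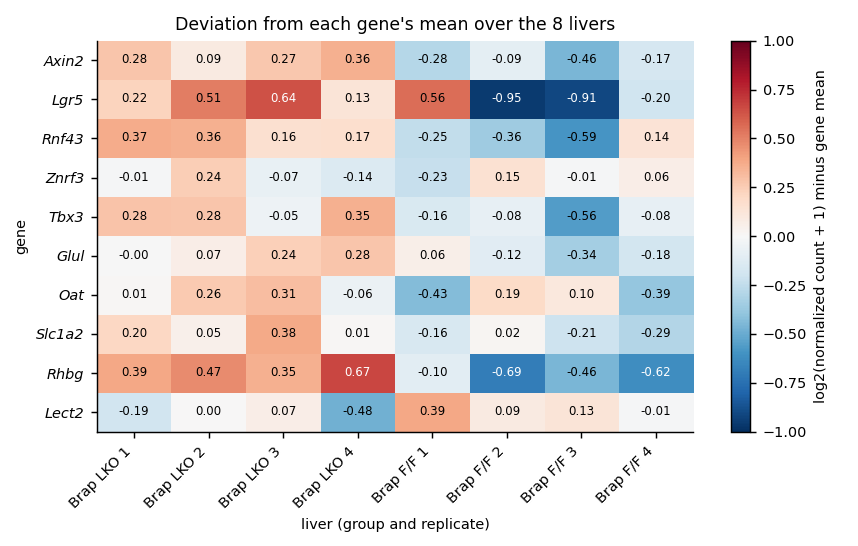
Deviation of log2(normalized count + 1) from the mean of each gene over the 8 livers, for the 10 genes (rows) in each liver (columns), with red above and blue below the mean. Axin2, Lgr5, Rnf43, Slc1a2 and Rhbg lie above their means in all 4 Brap LKO livers. Lgr5 in Brap F/F replicate 1 (0.56) lies within the range of the Brap LKO livers.

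For the 4 members whose log2 values had an SD of at least 0.3 over the 8 livers, the tested genes with the nearest profiles were found by the root mean square difference of mean-centered log2 values. Nearest to Lgr5 were Gm35164 (0.13), Chic1 (0.15) and Rapgefl1 (0.18). Rnf43 was nearest to Cd68 (0.09), Cln6 (0.09) and Tfap4 (0.10), and genes near Tbx3 included Bloc1s2 (0.10) and Coro1a (0.10). The profiles closest to Rhbg were those of Tsc22d1 (0.13), Car2 (0.15) and Anxa9 (0.16), of which Car2, carbonic anhydrase 2, passed the threshold (log2 difference 0.75, adjusted p = 0.0364 from limma).

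The ligands of the central vein had small positive differences that did not pass the threshold. Wnt2 had a mean normalized count of 80.4 ± 12.2 (SD, n = 4) in Brap LKO and 64.9 ± 8.83 (SD, n = 4) in Brap F/F livers (log2 difference 0.30, adjusted p = 0.398 from limma), and its difference was 0.14 under quantile normalization and 0.46 with equal totals. Wnt9b, at 62.9, 60.3, 52.6 and 54.1 in Brap LKO and 25.1, 45.8, 51.5 and 51 in Brap F/F livers, was higher in every Brap LKO liver than in any control, with 3 of the controls close by (log2 difference 0.45, adjusted p = 0.386 from limma), and without Brap F/F replicate 1 the difference was 0.21. Rspo3 likewise did not overlap, with 161 ± 15.5 against 128 ± 20.6 (SD, n = 4 each), and its log2 difference was 0.34 (adjusted p = 0.282 from limma). Of 25 listed Wnt ligands, R-spondins and secretion factors, 12 were tested and 9 had a value above 0, with a median of 0.32. By limma 0 of the 12 passed the threshold (0 also with edgeR and with DESeq2, which gave no adjusted p for Wnt7b). At an unadjusted p under 0.05 there were 4 higher, Wnt7b, Wnt11, Rspo3 and Wls, and 1 lower, Wnt9a, of which Wnt7b, Wnt11 and Wnt9a are named after their values were seen. Of all tested genes, 9.23% were higher and 6.59% lower at that p.

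Ctnnb1, which encodes β-catenin, had a mean normalized count of 6859 ± 287 in Brap LKO and 6707 ± 973 in Brap F/F livers (SD, n = 4 each), with a log2 difference of 0.04 (95% interval -0.19 to 0.27), which turned to -0.03 without Brap F/F replicate 2 and was 0.00 without Brap F/F replicate 3. The difference was 0.06 for Apc (-0.03 without Brap F/F replicate 4), 0.00 for Lgr4 and 0.22 for Tcf7l2 (0.12 without Brap LKO replicate 2), and the adjusted p from limma was at least 0.32 for each of these genes. Of 17 receptors, 12 were tested, with a median of 0.09, and 0 passed by limma, edgeR or DESeq2, while Fzd7, named after its values were seen, was higher at an unadjusted p under 0.05. Of 28 genes of β-catenin turnover and transcription, all were tested, 15 were above 0 and the median was 0.04. By limma and edgeR 0 of the 28 passed and by DESeq2 1, Pygo1, did; at an unadjusted p under 0.05, Lef1 and Pygo1 were higher and Gsk3a and Tcf7l1 lower, all 4 named after their values were seen. Lef1 and Pygo1 had few reads and did not overlap between the groups, with means of 16.9 against 7.59 and of 21.8 against 7.77 normalized counts, and log2 differences of 1.08 and 1.42 (adjusted p = 0.0881 and 0.0968 from limma). Of the 28 genes, 3 lay wholly higher in Brap LKO (Lef1, Pygo1 and Tcf7l2) and 2 wholly lower (Gsk3a and Tcf7l1). The shares of all tested genes were 5.48% and 4.39%. At an unadjusted p under 0.05 from limma, 9.23% of all tested genes were higher and 6.59% lower.

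Of 11 listed Wnt targets shared by many tissues 10 were tested, 9 were above 0, as Axin2 was, and the median was 0.43. Myc was the one below 0, with 270, 295, 546 and 201 normalized counts in Brap LKO and 410, 553, 971 and 188 in Brap F/F livers (log2 difference -0.56, adjusted p = 0.578 from limma), and Ccnd1 was at 1.19 with an interval that included 0 (-0.36 to 2.73). Leaving out 1 liver moved Myc from -0.98 (the 4th Brap F/F liver) to -0.19 (the 3rd). For Ccnd1 the difference then ranged from 0.72 (without the 3rd Brap F/F liver) to 1.65, and it was 0.77 without the 2nd. Nkd1, an inhibitor that acts on Dishevelled, measured 188, 170, 176 and 162 normalized counts in Brap LKO and 93.5, 130, 124 and 122 in Brap F/F livers (replicates 1 to 4), with every Brap LKO liver above every control (log2 difference 0.57, adjusted p = 0.083 from limma and 0.00553 from DESeq2). Notum and Sp5 overlapped between the groups, with differences of 0.18 and 0.47, or 0.06 and 0.16 without Brap F/F replicate 3. By limma and edgeR 0 of these 10 passed and by DESeq2 1 did, and Nkd1, Lef1 and Tnfrsf19 were higher at an unadjusted p under 0.05, the last 2 named after their values were seen. Of 9 tested antagonists of 19 listed, Nkd1 and Notum again among them, 8 were above 0 (median 0.57), 4 were higher at an unadjusted p under 0.05 and DESeq2 called 3 higher, Dkk3 and Nkd1 among them. By limma and edgeR 1 passed the threshold, Dkk3, a secreted protein of the Dickkopf family, with 116, 97.7, 135 and 131 in Brap LKO and 47.9, 41.7, 58.9 and 40.2 in Brap F/F livers (log2 difference 1.33, adjusted p = 0.0155 from limma). Leaving out 1 liver ended the call of Dkk3 in 4 of 8 cases, for Brap LKO replicates 1, 3 and 4 and for Brap F/F replicate 2 (adjusted p up to 0.0628 from limma). Over all tested genes, 9.23% were higher at an unadjusted p under 0.05 from limma, and DESeq2 called 455 of 15352 higher.

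Of 26 other genes of pericentral hepatocytes, all tested, 7 had a value above 0 and 19 below, with a median of -0.21, and among 22 periportal genes 4 were above 0 and 18 below, with a median of -0.19. Under quantile normalization both medians were -0.09. With equal totals they were -0.06 and -0.04, beside 0.15 for all tested genes, a shift that this scaling gives to every gene. Slc22a3, an organic cation transporter, was higher in Brap LKO, with 424, 477, 533 and 566 against 274, 264, 246 and 173 in Brap F/F livers (log2 difference 1.07, adjusted p = 0.0248 from limma). Cyp2c37, a cytochrome P450 enzyme, was lower, with 3560, 3081, 3592 and 2468 against 5692, 6488, 5629 and 4548 (log2 difference -0.82, adjusted p = 0.0417 from limma). When 1 liver was left out, Slc22a3 passed only without Brap F/F replicate 1 or 4 (adjusted p from limma up to 0.0812 otherwise) and Cyp2c37 only without Brap F/F replicate 4 (up to 0.103 otherwise). Cyp2c37 also missed the threshold after quantile normalization (adjusted p = 0.0598 from limma). Slc22a3 missed it with the replicate number as a block, which pairs livers by number only (adjusted p = 0.0617 from limma). At an unadjusted p under 0.05 from limma 2 of the 26 were higher and 5 lower, and DESeq2 called 1 higher, Slc22a3, and 2 lower, Cyp2c37 and Cyp2c29. Of all tested genes, 9.23% were higher and 6.59% lower at that unadjusted p, and DESeq2 called 455 higher and 170 lower of 15352. Cyp2c29 had the most negative difference of the 26, with 25318, 26838, 37582 and 18168 against 48085, 55418, 53580 and 43334 (log2 difference -0.93, adjusted p = 0.075 from limma and 0.000945 from DESeq2), and every Brap LKO liver lay below every control. The most positive was that of Cyp7a1, named after its values were seen, at 1.32 (adjusted p = 0.277 from limma). Its groups overlapped, and the difference ranged from 0.83 to 1.72 when 1 liver was left out. Cyp3a11 overlapped, at -0.33 (adjusted p = 0.494 from limma), with -0.51 without Brap F/F replicate 1 and -0.20 when Brap F/F replicate 2 was left out. Cyp2e1, an abundant pericentral enzyme, ranged from 182343 to 282112 in Brap LKO and from 232304 to 396511 in Brap F/F livers (log2 difference -0.42, adjusted p = 0.457 from limma), and Cyp1a2 and Gulo had differences of -0.07 and 0.13. The difference of Cyp2e1 shrank to -0.11 under quantile normalization. The sign of Cyp1a2 turned under quantile normalization (0.10), when livers were scaled to equal totals (0.09) and without replicate 4 of either Brap LKO (0.03) or Brap F/F (0.00). Gulo was at 0.03 without Brap F/F replicate 3.

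Of the periportal genes, 0 passed the threshold by limma, edgeR or DESeq2. At an unadjusted p under 0.05 there were 1 higher and 1 lower of the 22, beside 9.23% and 6.59% of all tested genes. The differences were 0.27 for Cyp2f2, 0.03 for Gls2, 0.08 for Hal and -0.19 for Cps1, each with an interval that included 0. Cps1 turned in sign under quantile normalization (0.14), Gls2 without replicate 1 of Brap F/F (-0.10) or replicate 2 of Brap LKO (-0.03), and Hal without replicate 1 of either Brap LKO (-0.02) or Brap F/F (-0.09). Of 15 listed genes of ammonia and glutamine handling, which include Glul, Oat, Slc1a2 and Rhbg, 13 were tested, 6 were above 0 and the median was -0.10, which turned to 0.14 under quantile normalization, and with equal totals it was 0.06, below the 0.15 of all tested genes. Glud1, glutamate dehydrogenase, was below every control in every Brap LKO liver, at 28402 ± 612 against 35465 ± 801 (SD, n = 4 each), with a log2 difference of -0.32 (adjusted p = 0.108 from limma and 1.69e-09 from DESeq2), which was -0.17 under quantile normalization and -0.16 with equal totals.

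**Figure D4:**
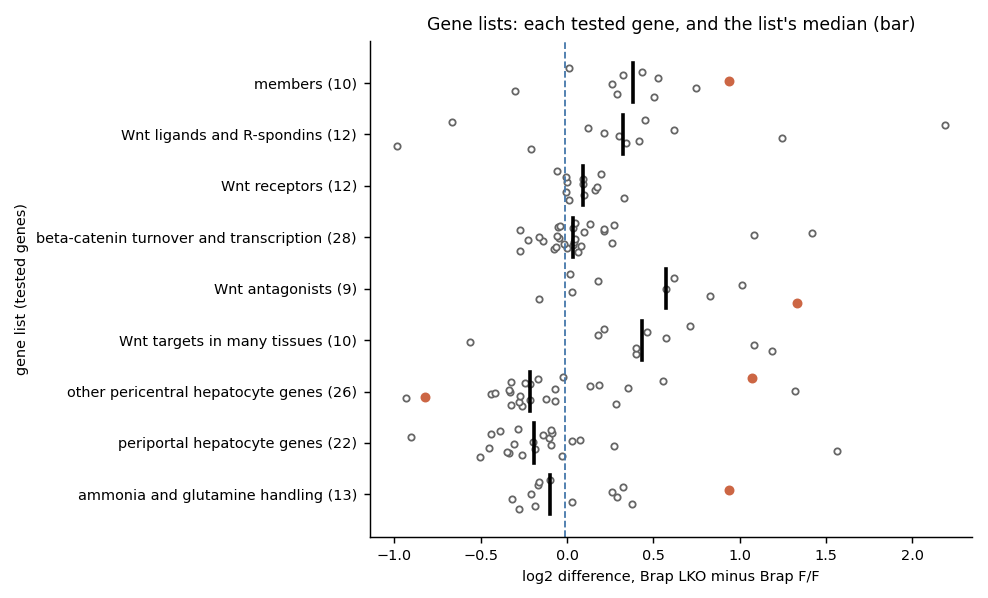
Fitted log2 difference, Brap LKO minus Brap F/F (horizontal axis), of each tested gene of 9 lists, with the number tested in parentheses, a bar at the list's median and a dashed line at the median of all tested genes (-0.01). Filled orange circles mark an adjusted p under 0.05 from limma, and the medians run from -0.21 for other pericentral genes to 0.57 for Wnt antagonists.

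Markers of other liver cells had mostly positive values in the same comparison, and their part in the differences above was not tested. Of 14 endothelial markers, all tested, 14 had a value above 0 (median 0.27), and their summed normalized counts were 15931, 12844, 13667 and 11610 in Brap LKO and 9470, 12830, 14138 and 10255 in Brap F/F livers, with Eng the most abundant. Endothelial cells of the central vein are a known source of Wnt2, Wnt9b and Rspo3. Of 10 cholangiocyte markers 9 were tested and 9 were above 0 (median 0.95), with sums of 2254, 2262, 1956 and 3831 against 1674, 1306, 1147 and 2177, led by Spp1, and Cftr was at 0 in 1 liver. Stellate cell and fibroblast markers were above 0 in 11 of 12 (median 0.73), with sums of 10451, 8023, 12622 and 10693 against 5219, 8481, 9039 and 6655, led by Dcn. Pdgfrb passed the threshold (log2 difference 0.91, adjusted p = 0.0494 from limma), as did Cftr (adjusted p = 0.0331 from limma), with normalized counts of 16.4, 16.1, 6.07 and 17.7 in Brap LKO and 0, 1.02, 2.1 and 0.981, or at most 2 reads per liver, in Brap F/F livers. When 1 liver was left out, Pdgfrb passed only without Brap F/F replicate 4 (adjusted p from limma up to 0.149 otherwise) and Cftr only without the 4th Brap F/F liver or the 3rd Brap LKO liver (up to 0.134 otherwise). Both calls were also lost with quantile normalization (adjusted p = 0.0674 for Pdgfrb and 0.0594 for Cftr from limma). That of Pdgfrb was lost with a pseudocount of 0.5 (0.0505) or a minimum mean of 20 (0.0549). That of Cftr was lost with the replicate number as a block, which pairs livers by number only (0.0771).

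Macrophage and monocyte markers were above 0 in 11 of 11 (median 0.50), with sums of 11563, 9770, 6328 and 7923 in Brap LKO and 6805, 6984, 6350 and 8857 in Brap F/F livers, led by Clec4f. Lymphocyte markers were above 0 in 9 of 10 (median 0.58), with sums of 661, 502, 410 and 580 against 410, 336, 294 and 355, led by Ptprc, and Klrb1c was at 0 in at least 1 liver. Hepatocyte markers, of which 9 of 10 listed symbols were found, were above 0 in 3 of 9 (median -0.18, but 0.09 under quantile normalization), with sums of 2552896, 2537189, 3193802 and 2498448 against 2956772, 4170061, 3506604 and 3466205, of which Alb made up 66.6%. Two-sided exact permutation tests of the 6 sums, adjusted over the 6, gave p from 0.114 for hepatocyte, cholangiocyte and lymphocyte markers to 0.286 for macrophage and monocyte markers. A single sum at the smallest possible p of 0.0286 would not pass after this adjustment, so these tests say little about the absence of a difference. DESeq2 called 5 stellate cell and fibroblast, 3 cholangiocyte, 2 macrophage and monocyte, 2 lymphocyte and 1 endothelial marker higher, 0 hepatocyte markers, and none lower, and edgeR called 2 stellate cell and fibroblast markers and 1 cholangiocyte marker higher. Of all 15352 tested genes DESeq2 called 455 higher and 170 lower, and edgeR 108 higher and 14 lower.

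**Figure D5:**
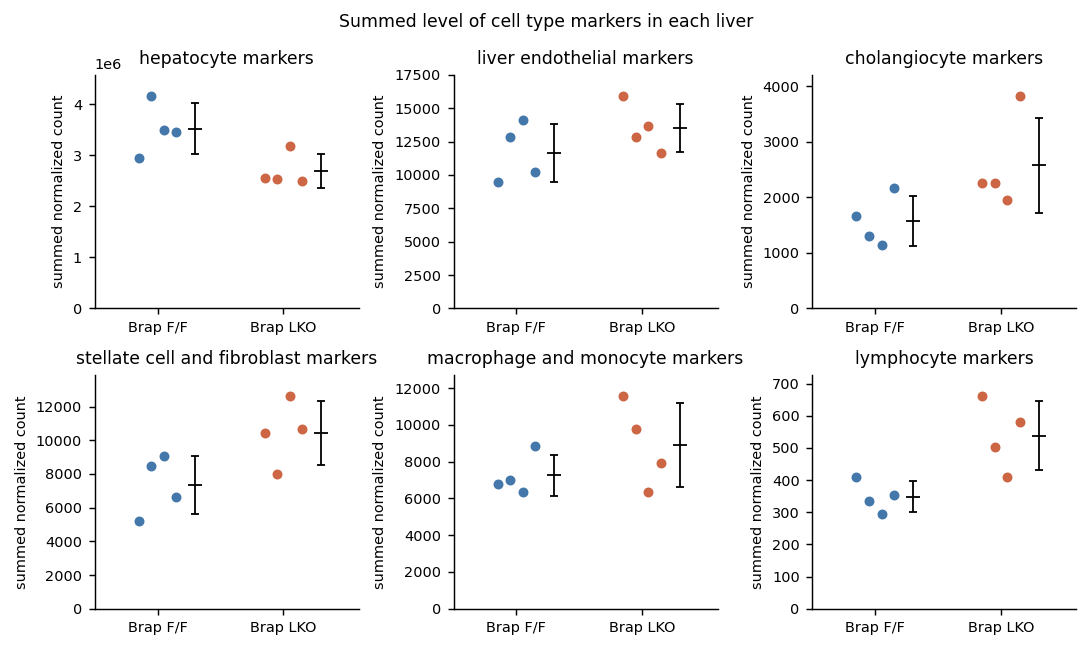
Summed normalized counts (vertical axes, from 0) of the markers of 6 cell types in each of 4 Brap F/F (blue) and 4 Brap LKO (orange) livers, with the mean and SD of each group in black. Hepatocyte sums are lower on average in Brap LKO livers and the other 5 higher, and exact permutation tests gave adjusted p of at least 0.114.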

How the data were processed

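The authors extracted RNA from frozen liver, prepared mRNA libraries and aligned the reads to mm10 with STAR 2.6.0c, per the submitters' processing notes. The counting tool and its use of strand are not given in the sources used here. The deposited signal is a normalized count, reads on a gene after the authors scaled each liver by its DESeq2 size factor. A DESeq2 results table of the authors (fold changes and p-values) was not used. Every value (100%, tolerance 0.001 reads) was a whole multiple of 1 read in its liver, so whole reads recovered in this way served for count tests. Between 26280884 and 33313914 reads were counted per liver, and intervals rest on the spread between livers.

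Values were tested as log2(normalized count + 1) with limma 3.58.1 in R 4.3.3 (trend, no covariates) for the 15352 genes with a mean of at least 5, with Benjamini-Hochberg adjustment over all of them. Count tests on the recovered reads called 108 genes higher and 14 lower with edgeR 4.0.16 (quasi-likelihood), and 455 higher and 170 lower with DESeq2 1.42.0. The alternatives were pseudocounts of 0.5 and 5, no filter, a minimum mean of 20, TMM factors, equal totals per liver, quantile normalization, both count tests, the replicate number as a block, the label number series as a covariate and leaving out each liver. For the marker sums, the same total and leaving out a liver were added after seeing the data. The fit was tested on simulated data with planted changes larger than any fitted difference of the members, so that test does not cover differences of their size.

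The genes named were the 10 members, Brap, 18 genes of the pathway and of zonation, in each list those past the threshold and the 3 with the highest mean, and for members with an SD of at least 0.3 the 3 nearest profiles. Genes named outside this rule are marked in the text. The members and lists were chosen with earlier results of these data known. Positions, exon lengths and overlaps came from GENCODE on GRCm38, the build named mm10, and promoters from RefSeq. Figures used Python 3.11.15 with matplotlib 3.10.9.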

Additional observations from a re-analysis of the deposited data

Results flagged for a closer look

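In 6 of the 132 groups of 4 livers examined, 1 liver lay far from the other 3, where chance gives about 6.6. None of the 6 was in one of the 10 members. Among pathway genes, Tcf7l2 had a normalized count of 972 in Brap LKO replicate 2 against 729 to 763 in the others. Wnt5b was at 380 in Brap LKO replicate 3 against 232 to 247, and at 356 in Brap F/F replicate 1 against 214 to 231. The pericentral gene Cyp1a2 was at 15063 in Brap LKO replicate 4 against 19589 to 20002. Of the marker genes, Cftr was at 6.07 in Brap LKO replicate 3 against 16.1 to 17.7, and Cd3e at 6.87 in Brap F/F replicate 4 against 24.4 to 27.4.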

How the results depend on the processing

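Of 1644 values of 87 named genes under 19 alternatives, 1502 kept their sign and their side of the threshold, 56 lost the call, 28 gained it and 58 turned in sign. Of the 10 members, 9 kept their sign in every alternative, and Znrf3 turned in 2. The causes of these changes were not tested.

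The count of genes higher (102) and lower (16) in Brap LKO livers was 455 and 170 with DESeq2. It was 459 higher with the same total per liver, 62 higher with quantile normalization and 9 lower with a minimum mean of 20. Without 1 liver it ranged from 11 (without Brap LKO 1) to 178 (without Brap F/F 4) higher and from 4 (without Brap F/F 2) to 54 (without Brap F/F 4) lower. The members called higher (1) numbered 3 with DESeq2, 4 with the same total, 0 with quantile normalization or the label number series, and 0 to 2 without 1 liver. DESeq2 called Axin2 (0.50) and Rnf43 (0.51), and the same total Axin2 (0.66), Rnf43 (0.69) and Slc1a2 (0.48). The Rhbg call was lost with quantile normalization (0.83) and the label number series (0.88). Without 1 liver Rhbg ranged from 0.86 to 1.06, Rnf43 from 0.42 to 0.66 and Znrf3 from -0.068 to 0.065.

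With the replicate number as a block, Tbx3 passed (0.44, adjusted p = 0.0491 from limma) and Rhbg (0.94, adjusted p = 0.0705 from limma), Slc22a3 (1.07, adjusted p = 0.0617 from limma) and Cftr (adjusted p = 0.0771 from limma) did not, and 80 genes were higher and 15 lower. Same-numbered livers shared deviations with correlations of -0.129, 0.00336, 0.196 and 0.292, so the replicate block pairs livers by number only.

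Sign changes of uncalled genes were as follows. Quantile normalization gave 0.008 for Brap, 0.095 for Cyp1a2, 0.137 for Cps1, 0.092 for Lrp6, 0.027 for Bcl9l and 0.080 for Slc38a3, and the same total gave 0.086, 0.091, 0.153, 0.094 and 0.058 for Brap, Cyp1a2, Lrp6, Bcl9l and Slc38a3. Lrp6 was at 0.009 with TMM and 0.004 with edgeR, Lgr4 at -0.001 with edgeR and -0.013 with DESeq2, and Stab1 at -0.011 with DESeq2. The label number series gave -0.006 for Lgr4, -0.102 for Wnt5b, 0.007 for Bcl9l, -0.035 for Kremen1 and -0.022 for Clec4f. Without 1 liver the ranges were -0.028 to 0.124 for Ctnnb1, -0.026 to 0.120 for Apc, -0.074 to 0.105 for Lgr4, -0.167 to 0.031 for Cyp1a2, -0.095 to 0.128 for Gls2, -0.092 to 0.171 for Hal, -0.042 to 0.297 for Wnt5b, -0.064 to 0.058 for Lrp6, -0.006 to 0.153 for Lrp5, -0.145 to 0.039 for Bcl9l, -0.025 to 0.074 for Kremen1, -0.065 to 0.086 for Apoa1, -0.103 to 0.136 for Stab1, -0.009 to 0.208 for Stab2, -0.096 to 0.137 for Clec4f, -0.043 to 0.328 for Cd5l and -0.031 to 0.830 for Cd3e.

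Medians with the same total, which moved that of all genes by 0.16, were 0.54 for the members, 0.67 for the feedback genes, 0.45 for the zonated metabolism and secreted members, 0.48 for ligands, 0.25 for receptors, 0.19 for β-catenin turnover, 0.59 for targets in many tissues, -0.036 for periportal genes, 0.058 for ammonia handling and -0.023 for hepatocyte markers. Quantile normalization gave 0.085 for β-catenin turnover, 0.137 for ammonia handling and 0.088 for hepatocyte markers. Without 1 liver the medians ranged from 0.009 to 0.123 for receptors, -0.004 to 0.052 for β-catenin turnover, 0.28 to 0.58 for targets in many tissues, -0.208 to -0.025 for hepatocyte markers and 0.47 to 0.81 for lymphocyte markers. The marker sums, run only with the same total and without 1 liver, kept their sign there.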
